A study of Rattus norvegicus with 32 samples.

Results

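The 10 genes described here (Ttr, Folr1, Kl, Clic6, Kcnj13, Tmem72, F5, Slc4a5, Aqp1 and Col8a1) are known for their expression in the choroid plexus, and were taken as a named list from the 23822 genes measured in rat hippocampus. Each gene was followed in every one of 32 rats to see how its level varied between single dissections, whether the genes varied together, and which of them were also present where the others were near 0. The rats were of the Crl:CD(SD) strain and either carried 1 copy of the R237H mutation in the astrocyte intermediate filament gene Gfap (Gfap+/R237H, here R237H), a model of Alexander disease, or were Gfap+/+ littermates (WT). Hippocampus was collected at postnatal day 21 (P21) or 56 (P56), from males and females. There were 4 rats in each group at P56 and in each male group at P21, 5 R237H females at P21 and 3 WT females at P21. These are the numbers the sample labels give. The study's methods state 4 rats per group, and the Gfap levels below follow the labels in every rat.

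The choroid plexus is a fold of vascular tissue covered by a cuboidal epithelium that hangs in the brain ventricles and secretes cerebrospinal fluid. Its epithelium moves water, sodium, bicarbonate and chloride from blood to fluid and releases carrier proteins into it. In the lateral ventricle it attaches along the fimbria, next to the hippocampus, which itself is not a known site of strong expression of Ttr. The study's methods say that excess white matter of the fimbria and fornix was removed and do not mention the choroid plexus.

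The genes fall into several roles. Ttr encodes transthyretin, a secreted carrier of thyroid hormone. Folr1 encodes a folate receptor and Kl encodes klotho, a coreceptor for a fibroblast growth factor. Kcnj13 is an inwardly rectifying potassium channel, Slc4a5 a sodium bicarbonate cotransporter, Clic6 a member of the chloride intracellular channel family and Aqp1 a water channel. F5 is coagulation factor V, Col8a1 an alpha chain of type VIII collagen, and Tmem72 a transmembrane protein. The identifiers were ENSRNOG00000016275 (Ttr), ENSRNOG00000019902 (Folr1), ENSRNOG00000001092 (Kl), ENSRNOG00000026870 (Clic6), ENSRNOG00000016057 (Kcnj13), ENSRNOG00000023340 (Tmem72), ENSRNOG00000057855 (F5), ENSRNOG00000010378 (Slc4a5), ENSRNOG00000011648 (Aqp1) and ENSRNOG00000039668 (Col8a1). These were matched through the gene names in the study's lists of differential genes, which name 3289 of the genes (13.8%). All 10 genes are named in the list for females at P21, and 8 of them are named there alone, so the genotype comparison in females at P21 is given below as a description.

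The promoter windows of Kl and Aqp1 are shown because these genes stood near opposite ends of the range of behaviors described below, with Kl following Ttr closely and Aqp1 loosely. Each window runs from 250 bases before to 50 bases after the RefSeq gene start in the rat build GRCr8, read along the gene's strand, at chr12:5325753-5326052 for Kl and chr4:85812534-85812833 for Aqp1, both on the plus strand. Capitals mark TAATC, the core of the site bound by OTX homeodomain factors, and TATAAA, the TATA box, each searched on both strands.
Kl: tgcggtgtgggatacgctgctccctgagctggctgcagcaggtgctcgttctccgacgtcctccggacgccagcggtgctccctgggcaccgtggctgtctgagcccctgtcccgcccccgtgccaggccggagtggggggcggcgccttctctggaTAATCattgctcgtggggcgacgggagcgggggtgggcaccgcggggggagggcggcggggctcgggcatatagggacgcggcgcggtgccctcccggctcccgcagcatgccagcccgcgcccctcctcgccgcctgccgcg
Aqp1: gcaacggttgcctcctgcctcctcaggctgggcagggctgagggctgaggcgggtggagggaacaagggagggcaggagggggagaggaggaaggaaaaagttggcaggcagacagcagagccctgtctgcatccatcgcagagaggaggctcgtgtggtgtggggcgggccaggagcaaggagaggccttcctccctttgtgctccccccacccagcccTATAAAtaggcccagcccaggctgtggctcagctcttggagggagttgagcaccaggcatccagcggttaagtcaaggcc
TAATC lies at position -93 of the Kl window and TATAAA at position -30 of the Aqp1 window, counted from the gene start. Of the 8 genes with a RefSeq window, Ttr, Kl, Kcnj13 and Tmem72 hold TAATC, against 22.9% of all 33469 promoter windows of that length. Aqp1 and Kcnj13 hold TATAAA, against 14.2% of all windows. The 2 motifs share no base, and a match is a stretch of letters and not a measured site.

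The libraries held 21580397 to 55544871 expected counts each (median 46157271), and 2 of them, R237H male P21 replicate 3 and R237H male P56 replicate 4, held fewer than 38503686. Gfap, the mutated gene, was higher in every R237H rat than in any WT rat, at 1832 to 3072 TPM (a transcript level scaled for length and library size) against 315 to 476 TPM at P21 and 2845 to 5257 TPM against 290 to 584 TPM at P56. The hippocampal neuron gene Neurod6 was present in all 32 rats, between 105 and 211 TPM. Nothing in the labels says that the rats of a group were of separate litters, so the p-values below measure the spread between these rats.

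Ttr divided the rats into a small high set and a large low set. In 5 rats it exceeded 700 TPM, at 5951 TPM in WT male P56 replicate 2, 3378 TPM in WT female P21 replicate 3, 1623 TPM in R237H female P56 replicate 4, 1001 TPM in WT male P21 replicate 1 and 761 TPM in R237H male P56 replicate 4. The next rat, R237H female P21 replicate 2, stood at 123 TPM. There were 4 more rats between 10 and 100 TPM, namely WT female P56 replicate 1 (36.3 TPM), R237H male P21 replicate 1 (29.6 TPM), R237H female P21 replicate 5 (25.2 TPM) and R237H male P56 replicate 1 (17.2 TPM). The remaining 22 rats lay between 0.9 and 6.76 TPM. The high rats were spread over 5 of the 8 groups with 1 in each, and included 3 of 15 WT and 2 of 17 R237H rats, both ages and both sexes.

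All of the other 9 genes were highest in the same 5 rats, and for none of them did any of the other 27 rats reach the lowest of the 5. Since bulk RNA was measured, more cells of a type and more RNA per cell cannot be told apart. The order within the 5 rats also held to a large degree, with WT male P56 replicate 2 the highest for each of the 10 genes. Of the genes for channels and transporters, Kcnj13 was at 61.4 TPM in that rat, Clic6 at 50.2 TPM, Aqp1 at 32.01 TPM and Slc4a5 at 29.4 TPM. There the receptors Folr1 and Kl stood at 61.4 and 39.8 TPM, and F5, Tmem72 and Col8a1 at 35.5, 15.8 and 9.9 TPM.

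**Figure D1:**
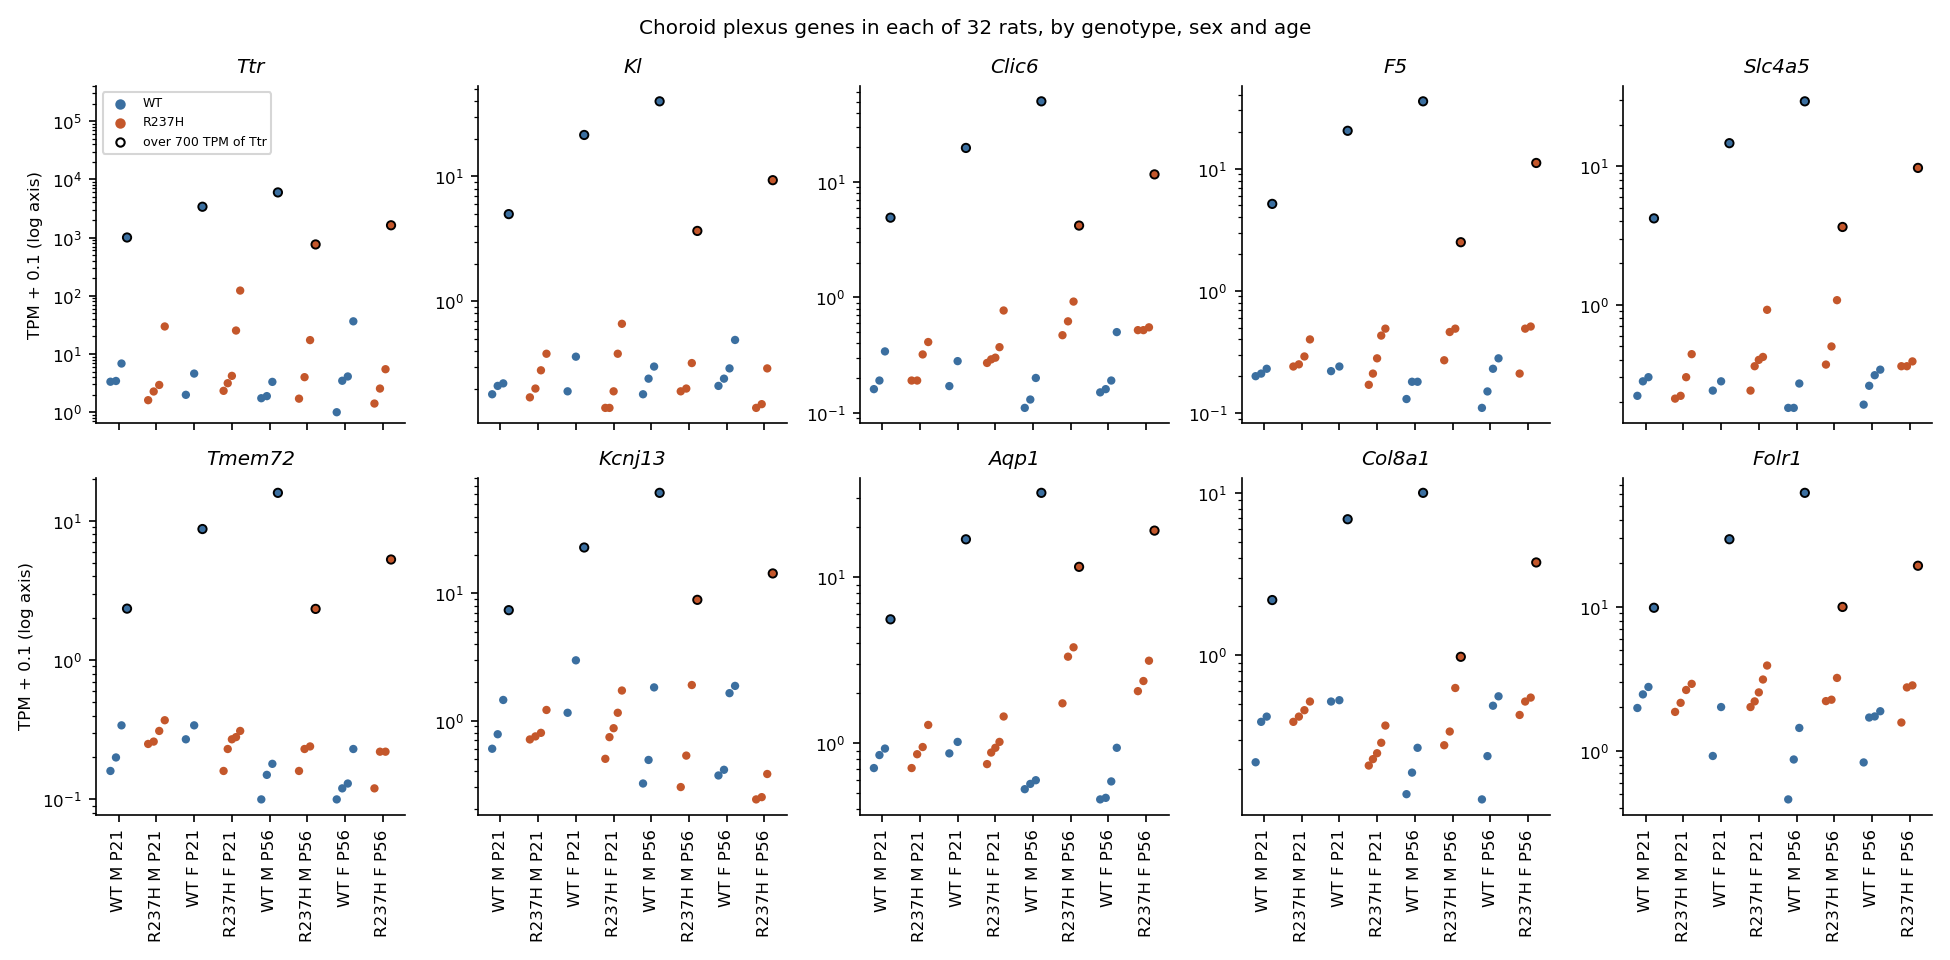
Level of each of the 10 genes in every rat, as TPM + 0.1 on a log axis, by group (M, male, F, female), with the points of a group spread sideways in order of level and WT in blue and R237H in orange. Ringed points are the 5 rats over 700 TPM of Ttr, which are the 5 highest rats in every panel.

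Kl was a close follower of Ttr. Its level was 39.8, 21.4, 9.23, 4.89 and 3.56 TPM in the 5 rats, listed in descending order of Ttr, so that both genes ranked these rats alike. In the other 27 rats Kl lay between 0.04 and 0.56 TPM with a median of 0.11 TPM, and the highest of these was R237H female P21 replicate 2, the rat that was also next in order for Ttr. In 10 of the 32 rats Kl was read from fewer than 10 counts, so its lowest values are imprecise.

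Clic6 measured 50.2, 19.7, 11.6, 4.82 and 4.1 TPM in the same 5 rats and 0.01 to 0.82 TPM in the others. Slc4a5 measured 29.4, 14.6, 9.65, 4.11 and 3.55 TPM against 0.08 to 0.98 TPM. Both cover the same order of rats as Ttr, with all 5 high values apart from the rest.

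F5 measured 35.5, 20.3, 11.04, 5.05 and 2.4 TPM in the 5 rats, and 0.01 to 0.41 TPM in the other 27. For Tmem72 the values were 15.8, 8.62, 5.17, 2.24 and 2.23 TPM against 0 to 0.27 TPM. It was not detected in WT male P56 replicate 4 (0 of 46185013 counts) and WT female P56 replicate 4 (0 of 44688016 counts), which allows up to 0.065 and 0.0671 CPM (counts per library total, scaled like TPM but not by length; 3 counts, counting error only).

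Kcnj13 and Folr1 kept a higher median level outside the 5 rats than Kl, Clic6, Slc4a5, F5 and Tmem72, as did Aqp1, described next. Kcnj13 was at 61.4, 22.8, 14.2, 7.26 and 8.77 TPM in the 5 rats and at 0.14 to 2.87 TPM in the others (median 0.65 TPM), where its highest rat, WT female P21 replicate 1, had only 4.51 TPM of Ttr. Folr1 was at 61.4, 29.2, 19.1, 9.71 and 9.84 TPM against 0.36 to 3.8 TPM (median 2.05 TPM). The highest of the other 27 rats for Folr1, R237H female P21 replicate 1, had 4.11 TPM of Ttr. The order of the lowest 2 of the high rats was exchanged for both genes.

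Aqp1 was at 32.01, 16.8, 18.9, 5.47 and 11.4 TPM in the 5 rats, so the 2 R237H rats at P56 each stood above the WT rat that preceded them in Ttr. In the other 27 rats Aqp1 was at 0.36 to 3.68 TPM (median 0.83 TPM). Col8a1 was at 9.9, 6.78, 3.63, 2.09 and 0.88 TPM against 0.03 to 0.53 TPM, which made it the least abundant of the 10 in the highest rat.

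The ratio to Ttr varied little among the high rats for several genes. As a percentage of the Ttr level in the same rat, Kl was 0.468 to 0.669%, Tmem72 0.224 to 0.319%, Slc4a5 0.41 to 0.595% and Folr1 0.864 to 1.29%, so the highest was at most 1.5-fold the lowest for each of them. Clic6 (0.481 to 0.843%), Kcnj13 (0.674 to 1.15%), Col8a1 (0.116 to 0.224%) and F5 (0.316 to 0.68%) ranged 1.71- to 2.16-fold. Aqp1 ranged 3.02-fold, from 0.496% in WT female P21 replicate 3, 0.538% in WT male P56 replicate 2 and 0.546% in WT male P21 replicate 1 to 1.17% in R237H female P56 replicate 4 and 1.5% in R237H male P56 replicate 4. The 2 R237H rats thus had the highest ratios for Aqp1, and also for Folr1 (1.18 and 1.29%) and Tmem72 (0.319 and 0.293%). These 5 rats were picked out by their Ttr level, and the ratios are a description.

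The dynamic range differed widely between the genes. The highest rat exceeded the median of 32 rats 1637-fold for Ttr, 285-fold for Kl, 222-fold for F5, 218-fold for Clic6, 118-fold for Slc4a5, 117-fold for Tmem72 and 83.5-fold for Kcnj13. It was 37.9-fold for Aqp1, 30.9-fold for Col8a1 and 28.7-fold for Folr1. Ttr, Folr1 and Aqp1 had at least 10 counts in every rat, and for these the highest rat exceeded the lowest 6612-, 170- and 88.9-fold.

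What remained outside the high rats was used to order the genes by how particular they were to them. The median of the 27 rats was 0.0544% of the highest rat for Ttr, 0.276% for Kl, 0.379% for Clic6, 0.394% for F5, 0.68% for Slc4a5, 0.825% for Tmem72 and 1.06% for Kcnj13. Aqp1 (2.59%), Col8a1 (2.93%) and Folr1 (3.34%) had the highest remaining shares. The ratio to Ttr showed the same contrast, as its median over the 27 rats was 60.1 times that over the 5 rats for Folr1, 48.0 times for Aqp1 and 41.7 times for Col8a1, against 4.82 times for Kl and 5.69 times for F5. No test was made of this order, which rests on 1 rat for the highest level.

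The next question was which of all measured genes rose with Ttr from rat to rat once the 8 groups were taken out. A model with a term for each group and 1 slope on log2(Ttr TPM + 0.1) was fitted to 15734 genes in 32 rats, Ttr itself being left out. It called 125 genes at a false discovery rate (FDR) under 0.01, which is 0.794% of those tested. The count of called genes fell to 44 without WT male P56 replicate 2 and to 79 without WT female P21 replicate 3. Of the 9 choroid plexus genes, 9 were called, all with a positive slope, and of the 125 genes 124 had a positive slope. Of these 9, 8 could be matched to an identifier only through the list for females at P21, where 1 WT rat stood at 3378 TPM of Ttr, so their count and FDRs in all 32 rats are a description. In the P56 rats alone, which that list did not use, 9 of 9 were called beside 0.305% of all genes, with slopes from 0.38 for Col8a1 to 0.67 for Kl. These rats include the high rats WT male P56 replicate 2, R237H female P56 replicate 4 and R237H male P56 replicate 4. Aqp1 is also named in the list for females at P56, and the genes were chosen with earlier results of these data known. The P56 count is therefore a description too. The likelihood-ratio test called 190 genes (1.21%) and DESeq2 170, each with all 9 choroid plexus genes among them. The slope is the log2 change of a gene per log2 unit of Ttr, where 1 would mean strict proportion.

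Kl had the steepest slope of the 9, at 0.67 ± 0.02 (SE, FDR = 1.5e-17), followed by Clic6 (0.62 ± 0.04), F5 (0.62 ± 0.04), Tmem72 (0.57 ± 0.04) and Slc4a5 (0.55 ± 0.03). Kcnj13 was lower, at 0.42 ± 0.05 (FDR = 3.0e-06). Col8a1 (0.36 ± 0.04), Aqp1 (0.36 ± 0.03) and Folr1 (0.35 ± 0.04, FDR = 2.0e-07) formed the lower end and differed from each other by less than their standard errors. No test of one slope against another was made.

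These slopes rested on the 5 high rats. Without them, 0 of 15775 genes were called at FDR under 0.01 by the edgeR quasi-likelihood test, 0% of those tested. An unadjusted p under 0.05 was found for 4 of the 9 genes, beside 611 of all 15775. The slope was then 0.46 ± 0.08 for Kl (FDR = 0.077), 0.36 ± 0.07 for Clic6 (FDR = 0.32), 0.25 ± 0.07 for Slc4a5 and 0.22 ± 0.09 for F5. For Aqp1 (0.03 ± 0.05), Col8a1 (-0.01 ± 0.10), Folr1 (-0.02 ± 0.06) and Kcnj13 (-0.04 ± 0.12) the slope was no larger than its standard error. Ttr ran only from 0.9 to 123 TPM in these 27 rats.

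**Figure D2:**
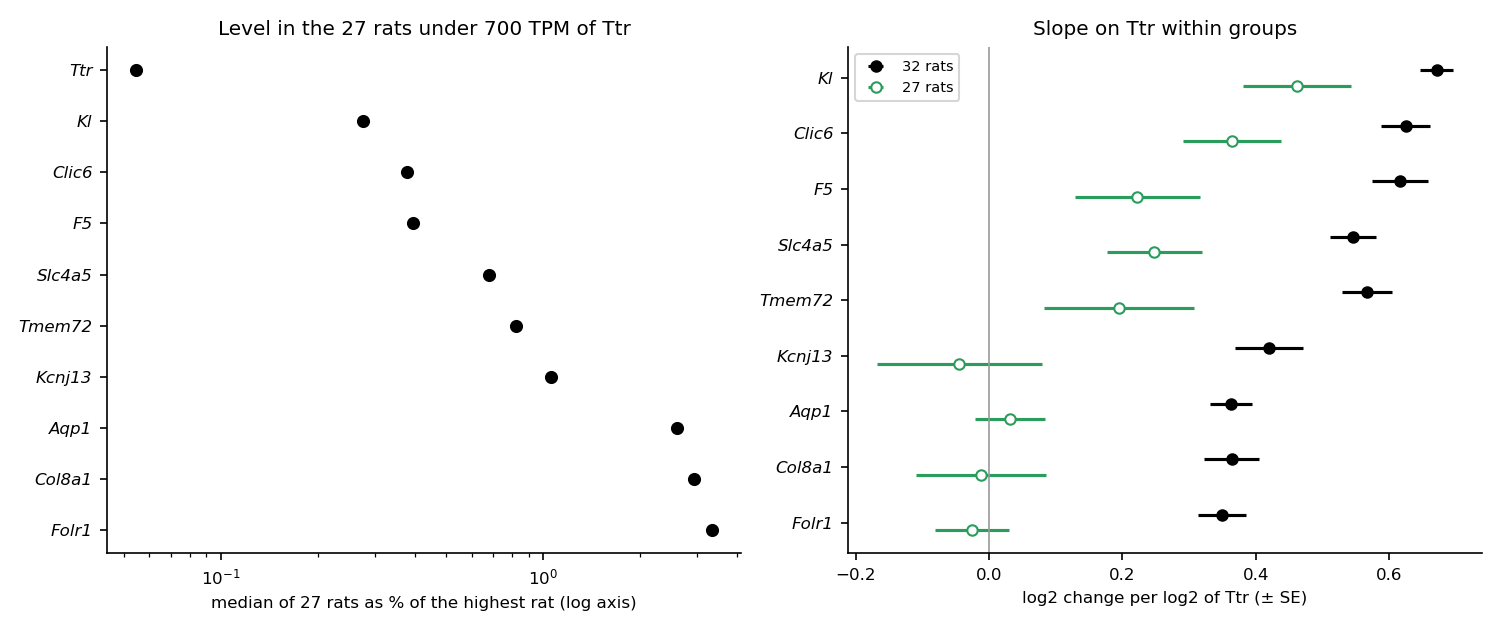
Left, median level of the 27 rats under 700 TPM of Ttr as a percentage of the highest rat, on a log axis, for each gene. Right, slope of each gene on log2 of Ttr within the 8 groups (± SE) in all 32 rats (black) and in the 27 rats (green, open since none passed FDR under 0.01). Slopes run from 0.67 for Kl to 0.35 for Folr1 in 32 rats.

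Correlation gave a similar order of genes. The rats form a high and a low cluster, so no pooled coefficient was tested, and the 27 rats of the low cluster were used with log2(TPM + 0.1), two-sided permutation of the rats (100000 resamples) and adjustment over 15734 genes. Kl had r = 0.72 (Spearman rho = 0.45) with Ttr, permutation p = 3.0e-05 and adjusted p = 0.236. Slc4a5 had r = 0.52 (rho = 0.47, permutation p = 0.0068), Clic6 r = 0.50 (rho = 0.34, permutation p = 0.00737) and F5 r = 0.42 (rho = 0.14, permutation p = 0.0302). The permutation p for rho was 0.0187, 0.0137, 0.0845 and 0.484 for Kl, Slc4a5, Clic6 and F5.

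Tmem72 had r = 0.32 and rho = 0.23, and Folr1 had r = 0.13 and rho = 0.11. Aqp1 (r = 0.02, rho = 0.03), Kcnj13 (r = 0.01, rho = -0.04) and Col8a1 (r = -0.09, rho = -0.10) showed no detectable relation to Ttr in these rats. The permutation p of r for these genes lay between 0.104 for Tmem72 and 0.948 for Kcnj13, and that of rho between 0.242 and 0.884. After adjustment 0 of the 9 genes had p under 0.05 for r or rho (adjusted p of 1 except for r of Kl). An unadjusted permutation p of r under 0.05 was found for 4 of 9, beside 193 of all 15734 genes. Leaving out the 2 rats farthest from the median of Ttr, R237H female P21 replicate 2 and WT female P56 replicate 1, lowered r to 0.48 for Kl, 0.38 for Slc4a5, 0.34 for Clic6 and 0.37 for F5, so the relation rested in part on those rats. Within the 14 low rats at P21 and the 13 at P56, r with Ttr was 0.74 and 0.71 for Kl, 0.85 and 0.23 for Slc4a5, 0.73 and 0.44 for Clic6 and 0.79 and 0.17 for F5.

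Pairs of the 10 genes behaved likewise, which is given as a description. Over 32 rats the 45 pairs had r between 0.73 (Kcnj13 with Aqp1) and 0.97 (Clic6 with F5), and all points shared library and depth. In the 27 rats the median fell to 0.28, 8 pairs were negative, and the highest was Clic6 with Aqp1 at 0.72.

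**Figure D3:**
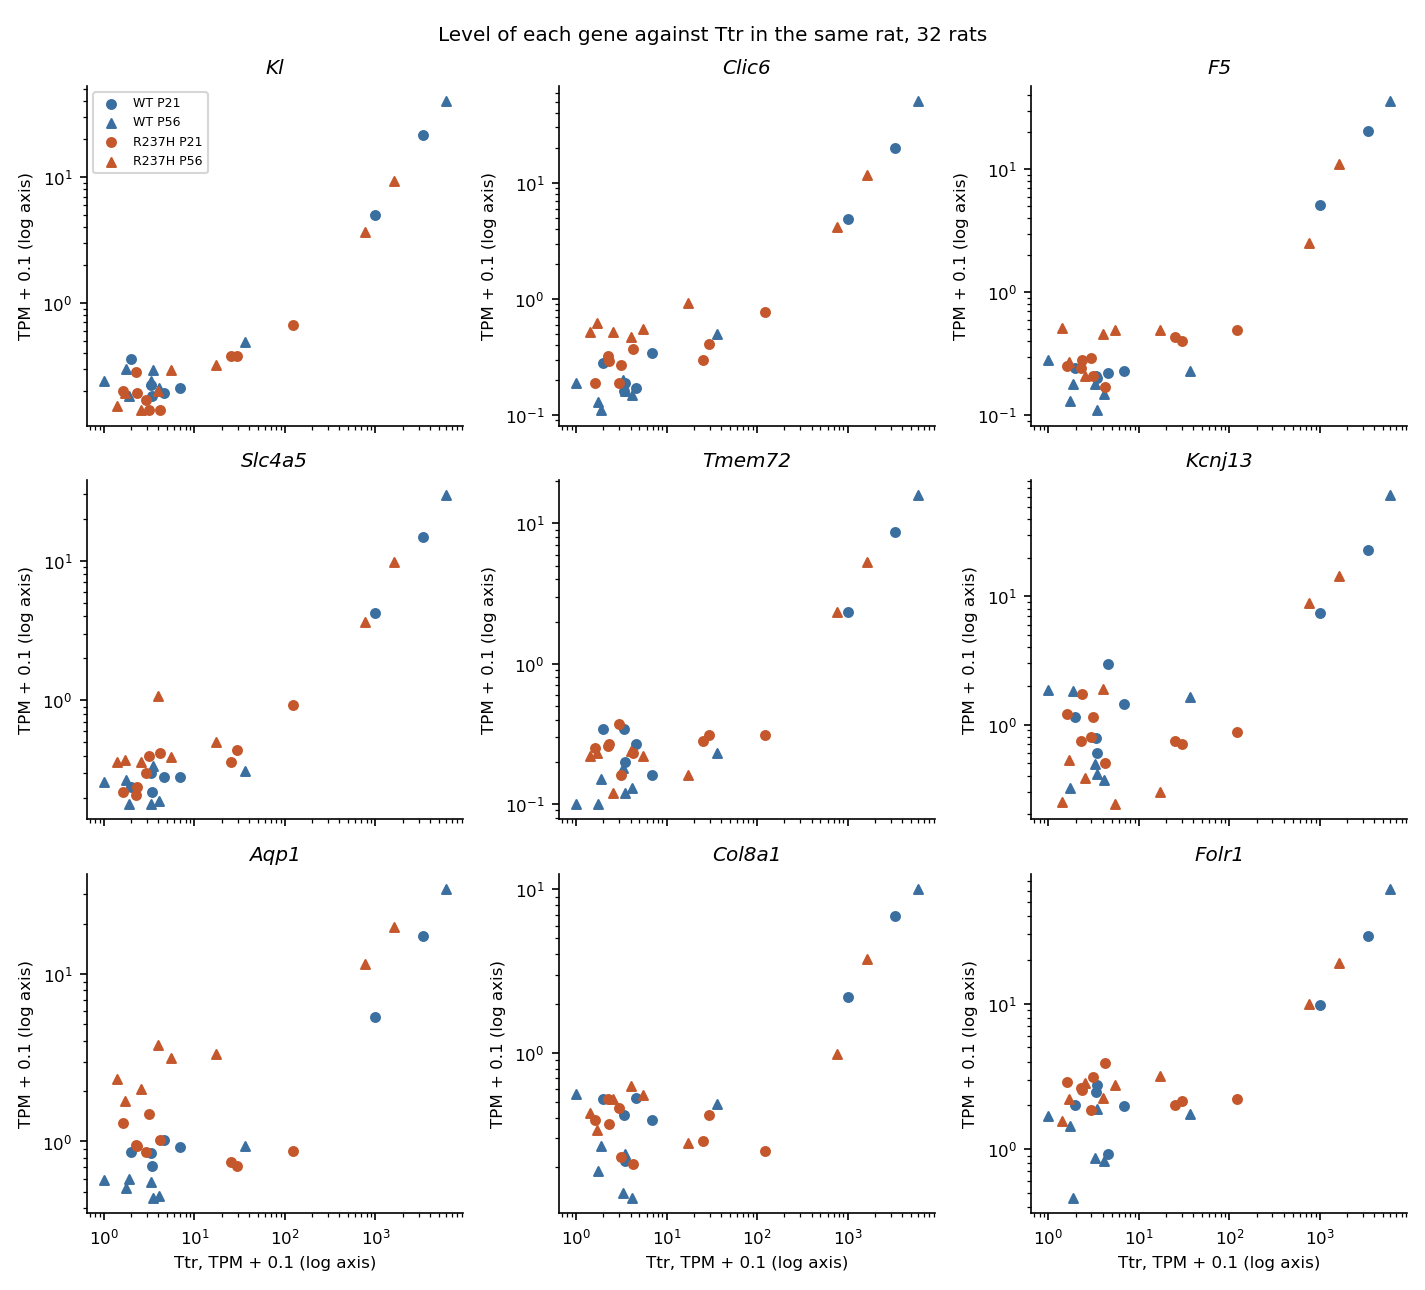
Level of each of 9 genes (vertical) against Ttr (horizontal) in the same rat, both as TPM + 0.1 on log axes, with WT in blue, R237H in orange, circles for P21 and triangles for P56. Points over 700 TPM of Ttr stand above the rest in each panel, and their order departs from that of Ttr for Aqp1, Kcnj13 and Folr1. Below 700 TPM, Kl still rises toward 123 TPM of Ttr while Aqp1, Kcnj13, Col8a1 and Folr1 do not.

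Genes outside the list with a pattern like that of Ttr were found by r over 32 rats, among genes with a name and a mean of at least 1 TPM. The closest was Sostdc1, an antagonist of bone morphogenetic protein signaling (r = 0.96), ahead of all 9 genes of the list. Then came Cldn2, a claudin of tight junctions (r = 0.92), Prr32 (0.89), Ace, the angiotensin-converting enzyme (0.85), Kcne2, a potassium channel subunit (0.84), and Enpp2, the enzyme autotaxin (0.82). Wfikkn2 (0.77), Mfrp (0.69), the keratin Krt18 (0.66) and Vat1l (0.63) completed the 10. By this measure Kl ranked 3, Slc4a5 4, Clic6 7, F5 8 and Tmem72 10 among 15734 genes, Folr1 ranked 21, and Col8a1, Kcnj13 and Aqp1 ranked 27, 28 and 29. Sostdc1 lay between 4.8 and 77.5 TPM in the 5 high rats and between 0 and 1.27 TPM in the others.

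Further genes known from the choroid plexus moved with the 10. Of 42 such genes 17 had an identifier, 9 of them only through the list for females at P21, so the counts that follow are a description. Of the 17, 12 were called for a positive slope on Ttr and none for a negative one, beside 0.794% of all genes (median slope 0.19, against 0.00 for all genes tested). They were 7 of the 9 genes named in females at P21 alone and 5 of the other 8. Sostdc1 had a slope of 0.83 ± 0.03 (SE), Cldn2 of 0.59 ± 0.03, Lmx1a, a homeodomain factor, of 0.44 ± 0.03 and Ace of 0.20 ± 0.02. Slc13a4, Cgnl1, Igf2, Igfbp2 and Cp were not called.

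Markers of other tissues that border the hippocampus or enter a dissection were read in the same model. Of 36 genes in 8 lists, 0 were called for the slope by the edgeR quasi-likelihood test at FDR under 0.01, a count near the background of 0.794% over all genes. Only genes named in the study's lists of differential genes could be read. These were 3 of 21 listed ependymal genes, 9 of 16 meningeal, 2 of 12 endothelial, 5 of 10 red cell and 4 of 10 oligodendrocyte genes. For neighboring nuclei they were 3 of 12, for hippocampal neurons 6 of 15 and for astrocytes 4 of 6. The 0 covers these 36 genes alone. The ependymal list (3 genes) had its lowest FDR at 0.139 for Tekt1, with Dnah9 and Rarres2 at slopes of 0.01, and the meningeal fibroblast list (9 genes) at 0.0785 for Fmod (slope 0.10 ± 0.03), with Ogn, Col1a2 and Bgn at slopes of 0.07, 0.06 and 0.03. Endothelial genes (Kdr and Plvap), red cell genes (Hba-a1, Hbb and Hba-a3), oligodendrocyte genes (Mal, Opalin and Cldn11), neighboring nuclei (Prkcd, Ppp1r1b and Gbx2) and astrocyte genes (Vim, Aqp4, Gfap and Aqp9) had slopes between -0.03 and 0.07. Among 6 hippocampal neuron genes the slopes ran from -0.06 (Wfs1) to -0.01 (Cpne4), also for the abundant Neurod6 and Lhx2. The summed level of the 9 meningeal genes was 109 to 273 TPM in the 5 high rats and 52.6 to 175 TPM in the others, and that of the 3 ependymal genes 37.2 to 94.6 and 38.6 to 99.3 TPM. The part of meningeal tissue in the levels of the 10 genes was not tested.

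The genotype comparison asked whether the R237H mutation altered these genes within each sex and age. Where all rats were kept, the difference had the sign of the genotype that held the highest rat. In males at P56 Ttr was 1.64, 1.79, 3.22 and 5951 TPM in WT rats (1489 ± 2974, mean ± SD, n = 4) and 1.61, 3.9, 17.2 and 761 TPM in R237H rats (196 ± 377, n = 4). The groups overlapped, and each contained 1 high rat. By the edgeR quasi-likelihood test 0 of the 10 genes were called at FDR under 0.01, against 27.9% of all genes tested. An unadjusted p under 0.05 was found for 0 of the 10, beside 7581 of all 15097 genes. All 10 fitted log2 fold changes (R237H over WT) were negative, from -0.95 ± 1.26 (SE) for Aqp1 to -3.68 ± 1.89 for F5. The likelihood-ratio test also called 0 (background 33.8%), with 3 at an unadjusted p under 0.05 (7468 of all 15097 genes). DESeq2 gave no p for any of the 10.

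In males at P21 Ttr was 3.24, 3.34, 6.76 and 1001 TPM in WT rats and 1.51, 2.17, 2.84 and 29.6 TPM in R237H rats. Again 0 of the 10 genes were called (background 17.2%), with 5 at an unadjusted p under 0.05, beside 5808 of all 14953 genes. Log2 fold changes ran from -0.87 ± 0.47 (Folr1) to -4.68 ± 1.76 (Ttr). The likelihood-ratio test called 0 (background 20.9%), and DESeq2 called 0 of the 3 genes to which it gave a p (background 22.5%). The groups overlapped, and 1 WT rat stood far above the other 7.

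In females at P56 the high rat was an R237H rat. Ttr was 0.9, 3.37, 4.01 and 36.3 TPM in WT rats and 1.31, 2.45, 5.38 and 1623 TPM in R237H rats, and 9 genes were tested, Kcnj13 not passing the filter on low counts. All 9 fitted log2 fold changes were positive, and 1 gene, Aqp1, was called (3.32 ± 0.74, FDR = 0.0046) against a background of 28.1%. At an unadjusted p under 0.05 there were 7 of the 9, beside 7703 of all 15033 genes. The likelihood-ratio test called 5 of the 9 (Clic6, Tmem72, F5, Slc4a5 and Aqp1), against a background of 34.1%. DESeq2 gave a p to 1 and called 0 (background 36.3%), and the model of all 32 rats called 0 (background 37.2%, Aqp1 FDR = 0.020).

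In females at P21 Ttr was 1.89, 4.51 and 3378 TPM in WT rats and 2.23, 3.05, 4.11, 25.2 and 123 TPM in R237H rats. The fitted log2 fold changes of the 10 genes ran from -1.95 ± 0.84 (Folr1) to -4.99 ± 1.44 (Kl). As a description, 0 of the 10 were called (background 7.82%), and all 10 had an unadjusted p under 0.05, beside 3820 of all 15149 genes. The likelihood-ratio test called 8 (background 11.3%), and DESeq2 called Kcnj13, the 1 gene to which it gave a p (background 12.2%). The lists through which the identifiers were found were sorted by this difference.

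Leaving out the rats over 700 TPM of Ttr, a choice made after seeing the data, turned the sign of most of these differences. In males at P56 (3 against 3) Ttr, Folr1, Clic6, F5, Slc4a5, Aqp1 and Col8a1 had positive fold changes, and Clic6 (3.11 ± 0.60, FDR = 0.0056) and Aqp1 (2.11 ± 0.37, FDR = 0.0032) were called, against a background of 18.2%. In females at P56 (3 against 4) Aqp1 was called (1.98 ± 0.32, FDR = 0.0012, background 21.6%), and Ttr (-2.14 ± 1.07) and Kl (-1.44 ± 0.62) became negative without being called. At P21 0 of the 10 were called by the quasi-likelihood test in males (background 14.9%) or in females (background 5.23%). An unadjusted p under 0.05 was found for 1 of the 10 in males, beside 5409 of all 15055 genes. In females it was found for 2, beside 3286 of all 15303 genes. Removal by Ttr trims Ttr itself and the genes that follow it, so these values are a description.

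**Figure D4:**
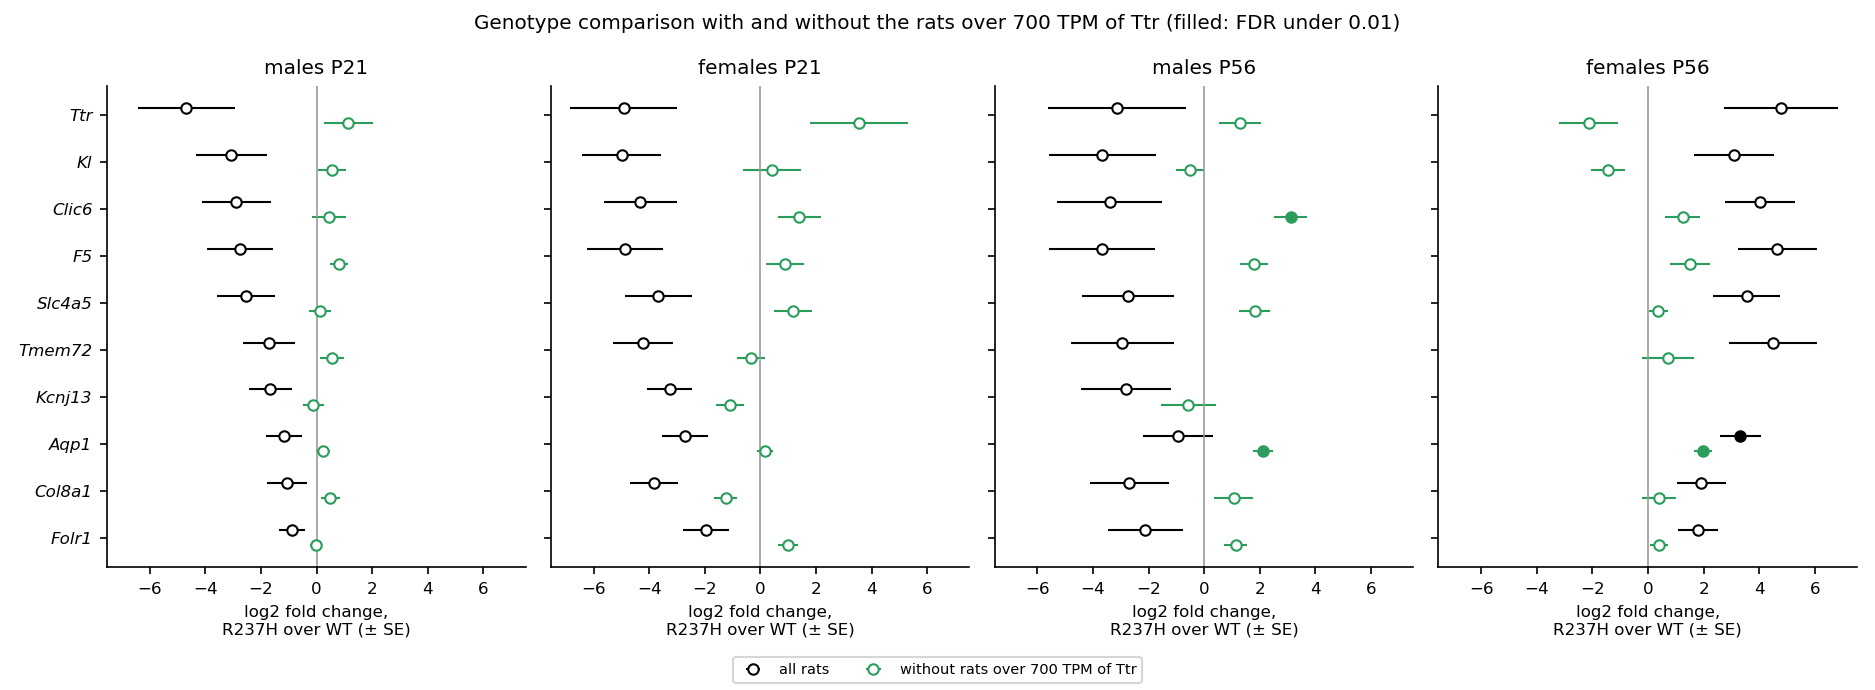
Log2 fold change of each gene, R237H over WT (± SE), in the 4 genotype comparisons, with all rats (black) and without the rats over 700 TPM of Ttr (green). Filled points have FDR under 0.01, and no point is drawn where a gene did not pass the filter. With all rats the points lie left of 0 in 3 panels and right of 0 in females at P56, and only Aqp1 and Clic6 have filled points.

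Aqp1 separated the genotypes at P56 in nearly every rat. In WT males at P56 it was 0.43, 0.47, 0.5 and 32.01 TPM, and in R237H males 1.64, 3.22, 3.68 and 11.4 TPM. The groups overlapped only through the WT rat at 32.01 TPM. In WT females at P56 Aqp1 was 0.36, 0.37, 0.49 and 0.84 TPM, and in R237H females 1.96, 2.27, 3.04 and 18.9 TPM, with no overlap. In TPM 32.1% of all genes were higher without overlap in these R237H females. Of the 10 genes 3 were, Aqp1, Clic6 and Slc4a5, a share near that of all genes. Without the 5 high rats, Aqp1 at P56 was 0.494 ± 0.162 TPM in 7 WT rats and 2.64 ± 0.797 TPM in 6 R237H rats.

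At P21 Aqp1 did not part the genotypes. It was 0.61, 0.75, 0.83 and 5.47 TPM in WT males, 0.61, 0.76, 0.85 and 1.19 TPM in R237H males, 0.77, 0.92 and 16.8 TPM in WT females and 0.65, 0.78, 0.84, 0.92 and 1.35 TPM in R237H females. Without the high rats the 5 WT rats were at 0.776 ± 0.114 TPM and the 9 R237H rats at 0.883 ± 0.243 TPM. Whether the genotype difference of Aqp1 itself differed between P21 and P56 was not tested.

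TPM values at P56 need a reservation, since the median gene tested was 0.40 (males) and 0.26 (females) log2 units higher in R237H rats in TPM, while it stood at -0.01 and -0.03 in the fits on counts scaled by TMM (the trimmed mean of M values). The fold changes above come from the latter. In CPM scaled by TMM, Aqp1 did not overlap between genotypes in females at P56 (22.2% of all genes had R237H rats higher without overlap), and in males at P56 it did not once the 2 high rats were left out (25.6% of all genes). Folr1, Clic6, F5 and Slc4a5 also did not overlap in males under that condition. Kcnj13 went the other way in females at P56 without the high rat, where WT rats were higher without overlap (18.7% of all genes). Without the high rats at P21, R237H rats were higher without overlap for F5 in males (19% of all genes) and for Folr1 in females (18%). WT females at P21 were higher for Col8a1 with all rats kept (7.2%) and without the high rat (11.9%).

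With the level of Ttr added to the model as a covariate, all rats being kept, Aqp1 remained higher in R237H females at P56 (2.34 ± 0.27, FDR = 1.3e-04) and was at 1.06 ± 0.42 (FDR = 0.07) in males. In that model Clic6 was called in females at P56 (2.06 ± 0.40, FDR = 0.0032) and Kl in males (-1.54 ± 0.31, FDR = 0.0034). The calls were 2 of 8 genes in females, beside 24.6% of all genes, and 1 of 9 in males, beside 27.4%, so the shares were near or below the background. Clic6 at P56, outside the high rats, was 0.106 ± 0.134 TPM in 7 WT rats and 0.5 ± 0.164 TPM in 6 R237H rats, a low level read from few counts.

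The Aqp1 call in females at P56 was lost when WT replicate 2, 3 or 4 was left out (log2 fold change 3.18 to 3.28, FDR 0.014 to 0.018), and in males at P56 Aqp1 was called when WT replicate 2 alone was left out (2.90 ± 0.64, FDR = 0.0058). Of the astrocyte genes read beside it, Gfap, Vim and Aqp9 rose in R237H rats at P56, by 2.85, 5.06 and 1.40 log2 units among males and by 2.89, 4.71 and 1.34 among females. Aqp4, the main water channel of astrocytes, was at 0.52 (FDR = 0.080) and 0.42 (FDR = 0.053). Other lists also held genes called at P56, where 27.9% of all genes were called in males and 28.1% in females. Of 5 red cell genes 4 fell and 1 rose in each sex. Among those that fell were Hba-a1 (-3.78 in males and -2.60 in females), Hbb (-3.33 and -2.87) and Hba-a3 (-4.11 and -2.88). Of 2 endothelial genes 1 fell in each sex, Kdr (-0.85 and -0.86), which codes for a receptor of vascular endothelial growth factor. Of 6 hippocampal neuron genes 4 fell in males and 2 in females, and of 4 oligodendrocyte genes 2 rose in males and 1 in females. Of 9 meningeal genes 0 were called in either sex, and of 3 ependymal genes 1 rose and 1 fell in each. Genes of neighboring nuclei went both ways in each sex. Several of these counts are near the share over all genes, and no list was tested as a set. The part of astrocytes, blood, vessels or the other cells in the Aqp1 level was not tested.

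Whether the genotype difference differed between the sexes was tested by an interaction term. At P56 all 10 estimates were positive, from 3.95 ± 1.71 (Folr1) to 8.35 ± 2.72 (F5), and 9 of 10 had an unadjusted p under 0.05. At FDR under 0.01 the edgeR quasi-likelihood test called 0 of 15419 genes (0%), with 310 at an unadjusted p under 0.05, and the likelihood-ratio test and DESeq2 also called 0. Without the high rats all 10 estimates were negative, from -0.11 ± 0.50 (Aqp1) to -3.38 ± 1.53 (Ttr), and 0 genes were called (464 at an unadjusted p under 0.05). At P21 the same tests called 0 of 15361 genes (0%), with 458 at an unadjusted p under 0.05, of which Col8a1 was 1 (-2.81 ± 1.29).

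Among WT rats, P56 was set against P21 with sex as a term. Age and the time of collection cannot be told apart. By the edgeR quasi-likelihood test 0 of the 10 genes were called (background 14.8%). An unadjusted p under 0.05 was found for 0 of the 10, beside 5809 of all 15274 genes. The likelihood-ratio test called 0 (background 17.7%) and DESeq2 gave none of the 10 a p. The log2 changes were smaller than their standard errors, from -1.77 ± 4.06 for Ttr to 0.02 ± 1.63 for Kcnj13. Of the 10 values, 9 were negative. Single rats set this. Without WT male P56 replicate 2 all 10 were negative (-6.59 for Ttr to -2.22 for Kcnj13). All 10 then had an unadjusted p under 0.05, beside 5802 of all 15223 genes. Without WT female P21 replicate 3 all 10 were positive (0.94 for Col8a1 to 2.78 for Clic6) and 0 were called (background 11.4%). Without WT male P56 replicate 2, Tmem72 was called as lower at P56 (-4.99, FDR = 0.007, background 13.8%). Without all 3 WT rats over 700 TPM it was at -1.68 ± 0.64 and 0 genes of the list were called (background 8.87%).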

How the data were processed

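RNA from the hippocampus of each of 32 rats was made into stranded polyA libraries and sequenced. Per the study's methods and the labels, reads were demultiplexed with bcl2fastq 2.20.0.422, trimmed with Skewer, aligned with STAR and quantified with RSEM, and the genome build and annotation are not given in the sources used here. The authors deposited RSEM expected counts per gene, of which 5.68% of values are not whole, and these were rounded here. The authors also deposited TPM, which RSEM scales by transcript length and library. Columns of the authors' own fold changes and p-values were not used.

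Genotypes were compared within sex and age with edgeR 4.0.16 (R 4.3.3): quasi-likelihood test, filterByExpr, TMM, Benjamini-Hochberg adjustment over all genes tested, FDR under 0.01. The same test gave the sex by genotype interaction, age in WT rats, and the slope on log2(Ttr TPM + 0.1) with a term per group. Alternatives were the edgeR likelihood-ratio test, DESeq2 1.42.0, limma 3.58.1 on log2(TPM + 0.1), other scaling, filters, covariates and left-out rats. Correlations used scipy 1.17.1 with 100000 permutations. The scripts were tested on simulated data. Levels are given in TPM. Expected counts set the precision, at 21580397 to 55544871 per rat.

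The 10 genes and all marker lists were chosen with earlier results of these data known. Outside the list, the genes named are the 10 with a symbol and a mean of at least 1 TPM whose r with Ttr was highest over 32 rats, at most 4 per marker list by the smallest p of the slope, at most 4 hippocampal and astrocyte genes by mean TPM, and Gfap. Of the listed marker genes, those without an identifier were not analysed here. Some marker genes that this rule would name are not reported here. Leaving out the rats over 700 TPM of Ttr was chosen after seeing the data.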

Additional observations from a re-analysis of the deposited data

Results flagged for a closer look

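A rat lying far from the rest of its group (Dixon's criterion at the 95% level, in groups of 4 or 5) was found in 42 of 70 combinations of gene and group, 36 of them in rats over 700 TPM of Ttr. For normally distributed values chance gives about 1 in 20 groups. The criterion was applied to TPM without a log, which is skewed, so that rate need not hold here. The 3 WT females at P21 were too few to be read, although replicate 3 was among the high rats. The 10 genes were read in the same rats and libraries, so these are not independent.

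In R237H female P21 replicate 2 the far values were 122.74 TPM of Ttr, 0.67 TPM of Clic6 and 0.82 TPM of Slc4a5, each the highest of its group. In R237H female P56 replicate 4 the far values were 1622.89 TPM of Ttr, 19.09 TPM of Folr1, 9.23 TPM of Kl, 11.58 TPM of Clic6, 14.20 TPM of Kcnj13, 5.17 TPM of Tmem72, 11.04 TPM of F5, 9.65 TPM of Slc4a5, 18.93 TPM of Aqp1 and 3.63 TPM of Col8a1, each the highest of its group. In R237H male P21 replicate 1 the far value was 29.59 TPM of Ttr, the highest of its group. In R237H male P56 replicate 4 the far values were 760.53 TPM of Ttr, 9.84 TPM of Folr1, 3.56 TPM of Kl, 4.10 TPM of Clic6, 2.23 TPM of Tmem72 and 2.40 TPM of F5, each the highest of its group. In WT female P56 replicate 1 the far values were 36.28 TPM of Ttr and 0.40 TPM of Clic6, each the highest of its group. In WT male P21 replicate 1 the far values were 1001.26 TPM of Ttr, 9.71 TPM of Folr1, 4.89 TPM of Kl, 4.82 TPM of Clic6, 7.26 TPM of Kcnj13, 2.24 TPM of Tmem72, 5.05 TPM of F5, 4.11 TPM of Slc4a5, 5.47 TPM of Aqp1 and 2.09 TPM of Col8a1, each the highest of its group. In WT male P56 replicate 2 the far values were 5950.87 TPM of Ttr, 61.37 TPM of Folr1, 39.84 TPM of Kl, 50.17 TPM of Clic6, 61.35 TPM of Kcnj13, 15.76 TPM of Tmem72, 35.51 TPM of F5, 29.41 TPM of Slc4a5, 32.01 TPM of Aqp1 and 9.90 TPM of Col8a1, each the highest of its group.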

How the results depend on the processing

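No call among the 10 genes changed with RLE size factors, which kept the sign of all 39 log2 fold changes. In males at P56, 1 gene was called with Ttr as a covariate (27.4% of all genes) and 2 without the rats over 700 TPM of Ttr (18.2%). Each rat left out gave 0 to 1 there (19.1 to 30.7%). In females at P56, 5 were called at FDR under 0.05 (43.2% of all genes), 5 by the likelihood-ratio test (34.1%) and 0 by DESeq2 (36.3%). The model of all 32 rats gave 0 there (37.2%), Ttr as a covariate 2 (24.6%) and each rat left out 0 to 2 (20.3 to 26.9%). In females at P21, 5 were called at FDR under 0.05 (13.3% of all genes), 1 without a filter on low counts (6.29%) and 8 by the likelihood-ratio test (11.3%). DESeq2 called 1 there (12.2%), and each rat left out gave 0 to 2 (4.3 to 8.96%). The WT age comparison gave 0 to 1 with each rat left out (11.2 to 17.7% of all genes). For the slope on Ttr, 2 genes were called when at least 10 counts were required in every rat (0.437% of all genes), since only 2 were then tested. Without the rats over 700 TPM 0 were called (0%), and 7 in the P21 rats alone (0.117%, not Folr1 or Kcnj13). The P56 rats alone gave 9 (0.305%), as did each rat left out (0.28 to 0.954%). Over all genes that slope called 18 in P21 rats, 47 in P56 rats, 60 with at least 10 counts in every rat, 209 at FDR under 0.05 and 219 with Folr1 in place of Ttr. DESeq2 gave no value where it gave none of the genes a p. The cause of the other changes was not tested.

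Numbers in the sample titles are shared between genotypes in all 4 comparisons. In males at P21 all 8 rats carry the same number, so no replicate block could be fitted there. In females at P56 only 2 pairs of an R237H and a WT rat share a number, so a block fit there rests on those pairs. The high rat, R237H female P56 replicate 4, shares its number with no WT female and does not enter that genotype estimate. As a replicate block the numbers gave 4 called genes in females at P56 (background 12.7%). Of these, Ttr (-2.96) and Kl (-2.83) were lower in R237H rats and F5 (1.98) and Aqp1 (1.71) higher. Tmem72 (-0.13) turned sign with the block as well, and Ttr and Kl had been positive without it. In males at P56 the block gave 0 called genes (background 21.6%) and positive values for Ttr (0.92), Folr1 (0.68), Clic6 (1.51), F5 (0.60), Slc4a5 (0.63) and Aqp1 (1.30). In females at P21, where 3 pairs of an R237H and a WT rat share a number, it gave 0 (background 2.8%). The deviations of same-numbered rats from their group means correlated at -0.017 to 0.22 (males at P56), 0.066 and 0.47 (females at P56) and 0.024 to 0.39 (females at P21). Their means were 0.066, 0.27 and 0.16, against -0.020, -0.038 and -0.038 for rats with different numbers. What the number stands for is not stated. The main fits did not treat the rats as pairs, and in females at P56 the calls differed with the block.

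Log2 fold changes (R237H over WT) turned sign as follows. With Ttr as a covariate the values were, in males at P56 Folr1 0.0022, Clic6 0.41, Slc4a5 0.33 and Aqp1 1.06, in males at P21 Tmem72 0.19, F5 0.34, Aqp1 0.089 and Col8a1 0.29, in females at P56 Kl -0.61, in females at P21 Folr1 0.034. In limma on log2(TPM + 0.1) the values were, in males at P56 Ttr 0.12, Folr1 0.54, Clic6 0.74, F5 0.0051, Slc4a5 0.37 and Aqp1 1.36. Without the rats over 700 TPM of Ttr the values were, in males at P56 Ttr 1.27, Folr1 1.13, Clic6 3.11, F5 1.80, Slc4a5 1.82, Aqp1 2.11 and Col8a1 1.07, in males at P21 Ttr 1.15, Kl 0.57, Clic6 0.44, Tmem72 0.55, F5 0.81, Slc4a5 0.13, Aqp1 0.23 and Col8a1 0.50, in females at P56 Ttr -2.14 and Kl -1.44, in females at P21 Ttr 3.55, Folr1 1.01, Kl 0.42, Clic6 1.40, F5 0.89, Slc4a5 1.17 and Aqp1 0.16. With each rat left out in turn, sign turned without WT male P56 replicate 2, WT male P21 replicate 1, WT female P21 replicate 3 or R237H female P56 replicate 4, and the values ran in males at P56 -7.84 to 5.93 for Ttr, -2.88 to 1.90 for Folr1, -6.40 to 2.29 for Kl, -4.66 to 4.41 for Clic6, -4.44 to 1.11 for Kcnj13, -5.28 to 3.23 for Tmem72, -5.04 to 3.20 for F5, -3.81 to 2.93 for Slc4a5, -1.74 to 2.90 for Aqp1 and -3.16 to 1.53 for Col8a1, in males at P21 -6.89 to 1.15 for Ttr, -3.66 to 0.57 for Kl, -3.45 to 0.44 for Clic6, -2.10 to 0.55 for Tmem72, -3.13 to 0.81 for F5, -2.98 to 0.13 for Slc4a5, -1.46 to 0.23 for Aqp1 and -1.41 to 0.50 for Col8a1, in females at P56 -2.14 to 6.73 for Ttr and -1.44 to 3.57 for Kl, in females at P21 -6.99 to 3.55 for Ttr, -2.50 to 1.01 for Folr1, -5.99 to 0.42 for Kl, -4.98 to 1.40 for Clic6, -5.45 to 0.89 for F5, -4.36 to 1.17 for Slc4a5 and -3.23 to 0.16 for Aqp1. The r with Ttr turned sign in P21 rats to -0.18 for Folr1, -0.42 for Aqp1 and -0.21 for Kcnj13, as deviations from group means to -0.14 for Folr1 and -0.10 for Kcnj13, with a pseudocount of 1 to -0.00083 for Aqp1 and -0.0091 for Kcnj13, in TMM-scaled CPM to -0.022 for Aqp1, without the 2 rats farthest from the median of Ttr to -0.14 for Kcnj13, in P56 rats to 0.049 for Col8a1 and over all 32 rats to 0.80 for Col8a1.

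Limits: each group held 3 to 5 rats, and genes under 10 counts in several rats (Kl, Clic6 and Tmem72 most often) are imprecise at the low end.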
